A study of Homo sapiens with 12 samples.

Results

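DVL2, DVL3 and FRAT1 are the 3 genes studied here, out of 199 genes on an nCounter stem cell panel that was run on LX-2 cells. They were chosen by name, as the panel's Dishevelled genes other than DVL1 together with the GSK3-binding protein FRAT1. LX-2 is an immortalised human hepatic stellate cell line, a model of the liver cell that lays down scar collagen. The cells received either a mimic of the microRNA miR-25 or a control mimic built on a Caenorhabditis elegans sequence, both at 10 pmol/ml with Lipofectamine LTX, and were collected 24 h or 48 h later. There were 3 control and 3 miR-25 samples at each time, 12 in all. Each control sample shared its replicate letter and transfection efficiency with 1 miR-25 sample in the labels, which gave 6 pairs. A pair is called a transfection here, although each of its samples received its own mimic. All groups came from this 1 cell line, with no treatment named beyond the mimic, and the labels do not say whether the transfections used separate passages, so p-values measure the spread between these transfections. By the labels, miR-25 was 62.3-fold to 681-fold above control in the 6 miR-25 samples, and between 0.42 and 0.81 of the cells took up a fluorescent control.

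Dishevelled proteins sit just inside the cell membrane and pass the Wnt signal on from Frizzled receptors. In the canonical branch they recruit Axin away from the complex that marks beta-catenin for destruction, and in the noncanonical branches they act on small GTPases and JNK. FRAT1 binds GSK3, the kinase of that complex, and keeps it from phosphorylating beta-catenin. In hepatic stellate cells both branches have been tied to activation, the change from a quiescent cell to a myofibroblast. DVL2 and DVL3 are close relatives that can stand in for each other in many settings, whereas FRAT1 is a small protein of a different family.

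The sequences below show what was delivered and what was counted: the mature miR-25-3p with its seed (bases 2 to 8) in capitals, from RefSeq (GRCh38.p14, chr7:100093571-100093592, minus strand), and the stretch of each transcript that the panel's probes bind. The whole 100-base target is shown for DVL2, and the first 30 bases of the 100-base targets of DVL3 and FRAT1.
hsa-miR-25-3p: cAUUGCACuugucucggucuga
DVL2 probe target: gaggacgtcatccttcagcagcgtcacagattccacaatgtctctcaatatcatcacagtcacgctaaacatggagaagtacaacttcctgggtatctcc
DVL3 probe target, bases 1 to 30: gactcaatcttgcctgccttctgggagctc
FRAT1 probe target, bases 1 to 30: ctcaggctggtggagaactctggcttttgg
The targets of the 3 genes and of DVL1 shared runs of at most 8 bases with each other, so the Dishevelled genes were read by distinct probes. The letters that pair with the seed, GTGCAAT read on the transcript strand, were in 0 of the 193 probe targets with a sequence. The shorter match TGCAAT, which pairs with bases 2 to 7 and lies within GTGCAAT, was in 3 of 193 (1.55%), and in none of the 3 genes' targets. These are windows of 100 bases, and the rest of each transcript was not searched. By RefSeq (GRCh38.p14), DVL2 lies at chr17:7225342-7234517, DVL3 at chr3:184155377-184173614 and FRAT1 at chr10:97319271-97321915.

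The samples differed most in depth and in the first transfection of each time. The total over the 199 genes was 321243 to 409581 counts at 24 h and 107377 to 200821 at 48 h. The 6 spiked positive control probes summed to 76248 to 87475 and 51306 to 59004. In each of the 6 pairs the miR-25 sample had the higher total. Counts were therefore scaled to the mean total of 265105. Both samples of 48 h replicate 1 stood apart from the other 48 h samples of their group, at a chi-square of 51.4 to 73.1 for each degree of freedom against 2.52 to 3.996 between replicates 2 and 3. Those of 24 h replicate 1 stood apart by less, at 13.2 to 16.8 against 3.08 to 3.21. Several of the results below are also given without 1 of these transfections. Of 5 genes listed as marking activated stellate cells (COL1A1, CDH2, CD44, GAS1 and FGF2), 5 were above background in all 12 samples. Of 2 epithelial, 4 T cell and 2 muscle markers 0 were above it in all 12, but CD4 was in 11 samples and KRT15 in 5, and the other 6 in 0 to 2. Of 3 pluripotency markers POU5F1 was above it in 12 samples, NANOG in 8 and SOX2 in 0.

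All 3 genes were read in every sample. A count was taken as above background when it passed the mean plus 2 SD of the 8 negative probes of its sample, and DVL2, DVL3 and FRAT1 passed in 12 of 12. DVL2 ranked 57th, DVL3 70th and FRAT1 121st of the 199 genes by mean count, a rank that also depends on how well each probe captures its target. At its lowest, in miR-25 48 h replicate 1, FRAT1 was still 6.93 times the mean of the negative probes, and the lowest values of DVL3 and DVL2 were 72.6 and 92.6 times that mean. Counting error alone came to 2.95% to 5.76% of a DVL2 count, 3.76% to 6.51% for DVL3 and 11.2% to 19.6% for FRAT1. A FRAT1 ratio between a pair of samples thus carried a counting error of 16.6% to 26.6%, and a DVL2 ratio one of 4.35% to 7.58%.

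DVL2 was counted 878, 980 and 911 times in control replicates 1, 2 and 3 at 24 h, and 950, 1149 and 992 times in the miR-25 samples of the same transfections. At 48 h the counts were 301, 430 and 561 in control and 413, 537 and 614 with miR-25. Raw counts were higher with miR-25 in all 6 pairs, as the totals were. After scaling, the controls at 24 h were at 576, 758 and 752 and the miR-25 samples at 615, 783 and 716. At 48 h the scaled counts were 743, 810 and 811 in control and 705, 895 and 811 with miR-25. The arms overlapped at each time, and replicate 1 gave the lowest DVL2 value in each of the 4 groups.

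DVL3 was counted 549, 596 and 552 times in the 24 h controls and 698, 707 and 701 times with miR-25. At 48 h it was counted 236, 274 and 383 times in control and 341, 363 and 447 times with miR-25. Scaled, the 24 h controls were at 360, 461 and 456 and the 24 h miR-25 samples at 452, 481 and 506. The scaled counts at 48 h were 583, 516 and 554 in control and 582, 605 and 590 with miR-25. On this scaling every 48 h sample was above every 24 h sample, whichever mimic it had received. Within the controls the same held for 29 of 136 tested genes (21.3%), and within the miR-25 samples for 25 (18.4%). The share over all 12 samples was not counted. The 3 miR-25 samples at 48 h spanned the narrowest range of the 4 groups.

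FRAT1 was counted 66, 51 and 73 times in the 24 h controls and 80, 64 and 66 times with miR-25, then 31, 51 and 43 times and 26, 45 and 48 times at 48 h. Scaled counts were 43.3, 39.5 and 60.2 in control and 51.8, 43.6 and 47.6 with miR-25 at 24 h. At 48 h they were 76.5, 96.06 and 62.2 in control and 44.4, 75.0 and 63.4 with miR-25. The 48 h controls were all above the 24 h controls, as for 29 of 136 tested genes (21.3%). The miR-25 samples of the 2 times overlapped because of replicate 1. Over the 12 samples the CV of the scaled count was 29.2% for FRAT1, 14.4% for DVL3 and 11.8% for DVL2.

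**Figure D1:**
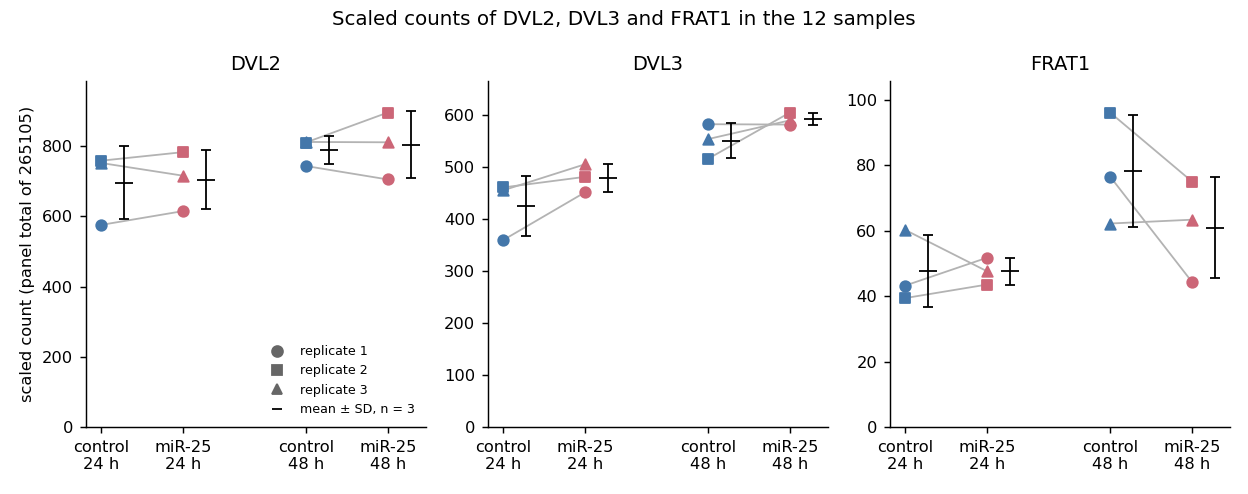
Scaled counts (y axis, linear, from 0) of DVL2, DVL3 and FRAT1 in the 4 groups, with 1 point per sample, the replicate by its shape, grey lines joining both samples of a transfection and black bars for the mean ± SD (n = 3). DVL3 lay at 360 to 506 in the 24 h samples and at 516 to 605 in the 48 h samples, while DVL2 and FRAT1 overlapped between the times in at least 1 arm. Of all tested genes, 21.3% in the controls and 18.4% in the miR-25 samples were higher at 48 h without overlap.

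The order of the 4 groups by mean scaled count was the same for DVL2 and DVL3. DVL3 was at 426 ± 56.9 in control 24 h, 480 ± 27.0 in miR-25 24 h, 551 ± 33.4 in control 48 h and 592 ± 11.7 in miR-25 48 h (SD, n = 3 each). The step between the 24 h groups was smaller than the SD of control 24 h, and the ranges of the 48 h groups overlapped, whereas the step from miR-25 24 h to control 48 h was larger than the SD of either. DVL2 was at 695 ± 104, 704 ± 84.4, 788 ± 39.0 and 804 ± 95.3 in the same order, with each step smaller than the SD of at least 1 of its groups. FRAT1 was at 47.7 ± 11.1 in control 24 h, 47.7 ± 4.10 in miR-25 24 h, 78.3 ± 17.0 in control 48 h and 60.9 ± 15.5 in miR-25 48 h, so that the 24 h groups could not be ordered. All these SDs are between replicates and leave out the pairing, so they are not the error of a step within pairs. Ratios within pairs are given below.

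The first comparison asked whether miR-25 changed the relays. Of the 3 genes, 0 passed the test at either time. DVL2 was at 1.016-fold with miR-25 at 24 h and 1.019-fold at 48 h. DVL3 was the highest of them, at 1.13-fold at 24 h and 1.078-fold at 48 h, and FRAT1 was at 1.01-fold and 0.804-fold. The test was the quasi-likelihood test of edgeR. It took in the 136 genes whose mean reached 20 counts, treated each transfection as a block, and adjusted p-values over those genes by the Benjamini-Hochberg method at 0.05. At 24 h it called 0 of 136 genes (0%), 9 of them having an unadjusted p below 0.05, and DESeq2 and limma also called 0, with 1 and 4 such genes. At 48 h edgeR called 1 gene (0.735%), the growth factor FGF1, named here after its value was seen, and over both times 0 (0%), with 21 at an unadjusted p below 0.05 and 0 calls by DESeq2 and by limma, with 10 and 23 such genes.

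The DVL2 ratios of miR-25 to control were 1.07, 1.03 and 0.952 in the 24 h pairs and 0.948, 1.11 and 0.999 in the 48 h pairs. They lay on both sides of 1, with 3 of 6 higher. Over both times the log2 fold change was 0.02 ± 0.04 (SE), and its 95% interval ran from 0.958-fold to 1.081-fold, with an adjusted p of 0.863 in the edgeR fit. The exact sign-flip permutation test over the 6 pairs gave p = 0.625, two-sided. At 24 h the sign turned with TMM scaling (-0.0078) and with DESeq2 (-0.016).

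For DVL3 the 24 h ratios were 1.26, 1.04 and 1.11, and the 48 h ratios were 0.999, 1.17 and 1.07. The pair at 0.999 was 48 h replicate 1, and the other 5 were above 1. Being higher in at least 5 of 6 pairs was shared by 30 of the 136 genes (22.1%), and being higher in all 3 pairs at 24 h by 35 (25.7%). The log2 fold change was 0.18 ± 0.06 at 24 h (adjusted p = 0.543), 0.11 ± 0.08 at 48 h (adjusted p = 0.540) and 0.15 ± 0.05 over both times (adjusted p = 0.249), all in the edgeR fit. Over both times the 95% interval was 1.03-fold to 1.19-fold, and DVL3 ranked 3rd of 136 by p, whereas the median of all tested genes was 0.02 on the log2 scale. The exact sign-flip permutation test over the 6 pairs gave p = 0.0625, where the smallest p that 6 pairs allow is 0.0312. Without 48 h replicate 1, DVL3 passed over both times, with a log2 fold change of 0.17 ± 0.05 and an adjusted p of 0.0320 from edgeR, in a fit that called 4 of 136 genes (2.94%). The other 3, named after their values were seen, were FOSL1 and CCND1, both higher, and the chemokine CXCL12, lower. Without 24 h replicate 1, the pair with the largest ratio, it was 0.11 ± 0.05 (adjusted p = 0.433 from edgeR). Over the alternatives tried for that result the adjusted p ran from 0.0132 to 0.988.

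For FRAT1 the 24 h ratios were 1.20, 1.10 and 0.790, and the 48 h ratios were 0.580, 0.781 and 1.019. They were higher in 3 of 6 pairs and spread more widely than those of DVL2 and DVL3. The ratios of DVL1 had an SD of 0.328 at 48 h. The mean ratio of FRAT1 was 1.03 ± 0.213 at 24 h and 0.793 ± 0.220 at 48 h (SD, n = 3 pairs). The 48 h log2 fold change was -0.32 ± 0.19, with a 95% interval of 0.602-fold to 1.07-fold and an adjusted p of 0.540 in the edgeR fit. Without 48 h replicate 1 it was -0.17, and without 48 h replicate 3 it was -0.52 (adjusted p = 0.268 from edgeR), so its size depended on which pair was left out. The counting intervals of 5 of the 6 pairs held 1, and that of 48 h replicate 1, from 0.344 to 0.976, did not.

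The miR-25 change at 48 h was also set against that at 24 h, as an interaction in the same fit. The difference on the log2 scale was 0.00 ± 0.08 for DVL2, -0.07 ± 0.10 for DVL3 and -0.33 ± 0.25 for FRAT1. edgeR called 0 of 136 genes for it (0%), with 8 at an unadjusted p below 0.05, DESeq2 called 1, FGF1, and limma 0, with 2 and 8 such genes. The adjusted p in the edgeR fit was 0.976, 0.899 and 0.840 for the 3 genes. The 95% interval for FRAT1 ran from 0.550-fold to 1.15-fold, wider than those of DVL2 (0.886-fold to 1.14-fold) and DVL3 (0.823-fold to 1.10-fold).

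**Figure D2:**
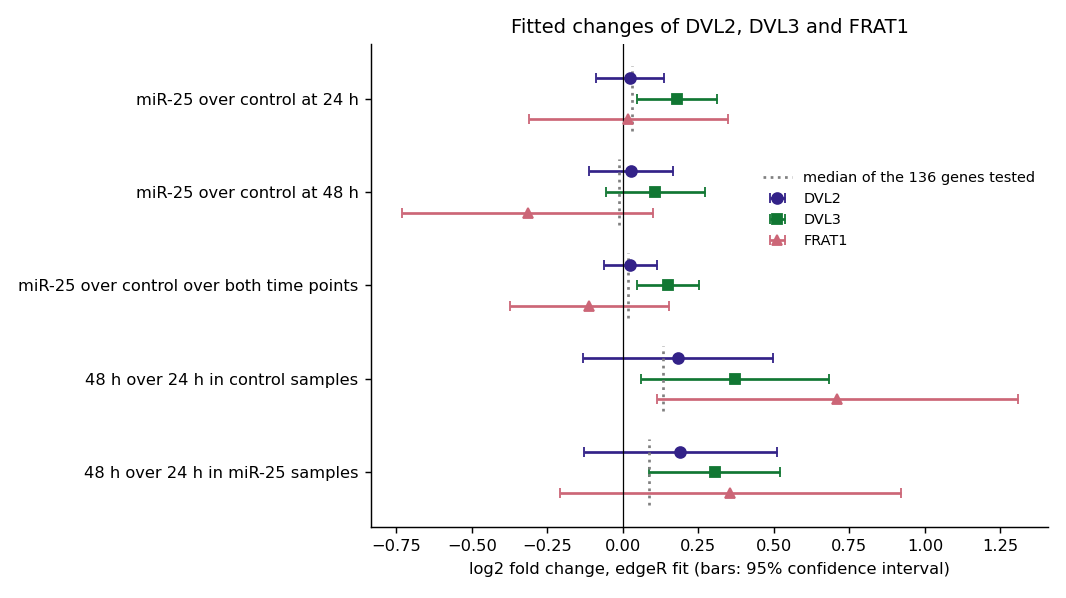
Log2 fold changes of DVL2, DVL3 and FRAT1 (x axis, edgeR fit, bars for the 95% confidence interval) in 5 comparisons, with the median of all 136 tested genes as a dotted line. DVL2 stayed within 0.03 of 0 in the 3 miR-25 comparisons, DVL3 was above 0 in all 5, and FRAT1 had the widest intervals.

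DVL3 was then set against DVL2 within each sample, a ratio that needs no scaling between samples. The ratio is one of counts by different probes and not of transcript numbers. In the 24 h pairs it was 0.625 in control and 0.735 with miR-25 in replicate 1, 0.608 and 0.615 in replicate 2, and 0.606 and 0.707 in replicate 3. In the 48 h pairs it was 0.784 and 0.826, 0.637 and 0.676, and 0.683 and 0.728. The miR-25 sample had the higher ratio in 6 of 6 pairs, 48 h replicate 1 included, although the step in 24 h replicate 2 was small. The ratio was 1.09-fold higher with miR-25, a log2 change of 0.12 ± 0.09 (SD over the 6 pairs). The exact sign-flip permutation test gave p = 0.0312, two-sided, the smallest that 6 pairs allow, and 0.375 after adjustment over the 15 comparisons of ratios made here. Of the other 135 tested genes, 6 (4.44%), DVL3 included, had a ratio to DVL2 that was higher with miR-25 in all 6 pairs. FRAT1 to DVL2 was higher with miR-25 in 3 of 6 pairs, with exact permutation p = 0.281, and DVL1 to DVL2 in 2 of 6, with exact permutation p = 0.719.

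**Figure D3:**
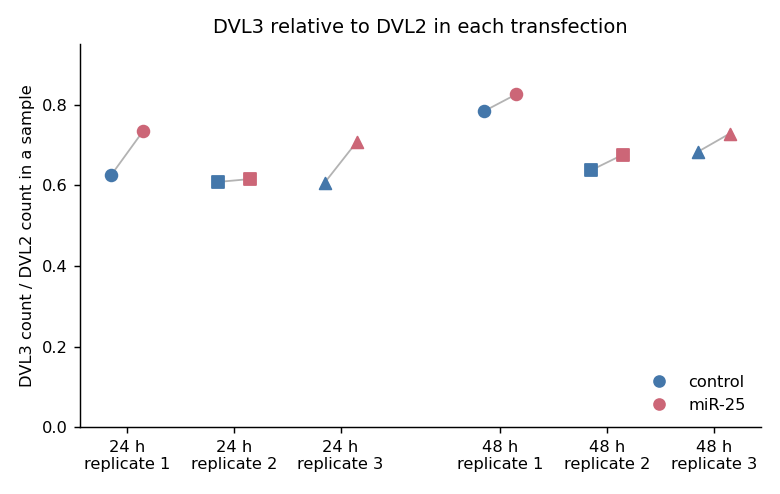
DVL3 count divided by DVL2 count (y axis, from 0) in both samples of each of the 6 transfections, joined by a line. The miR-25 sample was the higher one in each pair, from 0.608 against 0.615 in 24 h replicate 2 to 0.606 against 0.707 in 24 h replicate 3 and 0.625 against 0.735 in 24 h replicate 1.

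The study adjusted each ratio for the share of cells transfected, so the same step was applied here to the background-subtracted ratios. A gene whose mean ratio at a time point was over 2% above 1 had its 3 ratios divided by the transfection efficiency, one over 2% below 1 had them multiplied by it, and one in between was left as it was. DVL2 fell in between at both times, with means of 1.0178 and 1.0184, and was not altered. The mean ratio of DVL3 went from 1.14 ± 0.110 to 1.63 ± 0.434 at 24 h (SD, n = 3 pairs). At 48 h it went from 1.081 ± 0.0888 to 1.98 ± 0.374. Its 48 h replicate 1 pair, measured at 1.00, became 2.38, because its efficiency was 0.42. The mean ratio of FRAT1 went from 1.04 ± 0.240 to 1.51 ± 0.566 at 24 h. At 48 h it went from 0.789 ± 0.237 to 0.460 ± 0.218. Its ratio of 1.03 in 48 h replicate 3 became 0.668, on the other side of 1. Dividing or multiplying by a fraction moves every ratio of a gene one way, and the SD of DVL3 rose 3.96-fold at 24 h and 4.21-fold at 48 h.

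**Figure D4:**
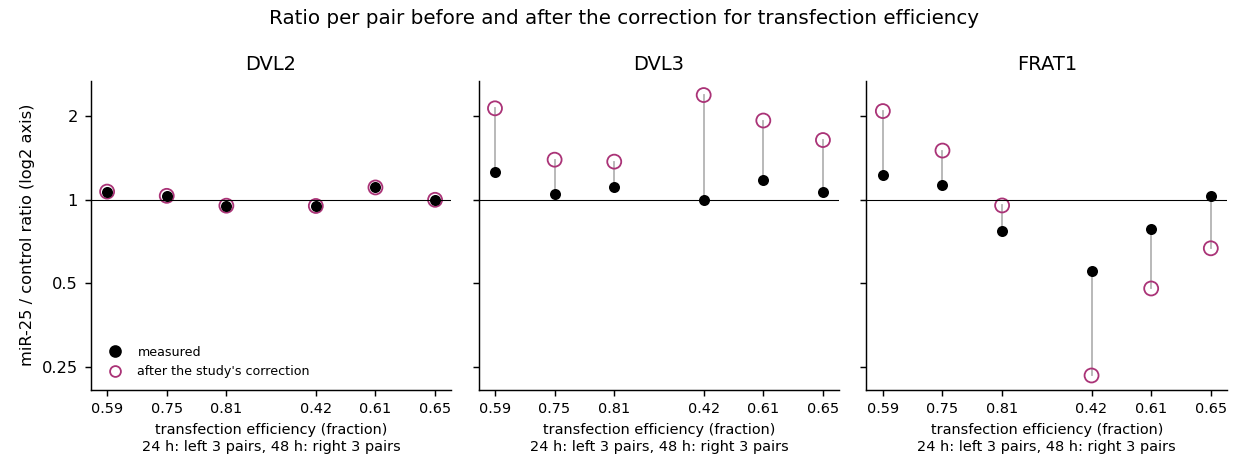
Ratio of miR-25 to control per pair (y axis, log2 scale) for DVL2, DVL3 and FRAT1, as measured (filled) and after the study's correction (open), with the transfection efficiency of each pair on the x axis. With the ratios computed here DVL2 was left unaltered, unlike in the paper, which lists it as raised. The DVL3 pairs moved up to between 1.37 and 2.38, and the FRAT1 pairs moved up at 24 h and down at 48 h.

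The next comparison was 48 h against 24 h within each arm. Relative to the panel total, DVL3 and FRAT1 were higher at 48 h than at 24 h in both arms, but neither passed the test. In the controls DVL3 was 1.29-fold, FRAT1 1.64-fold and DVL2 1.14-fold higher. In the miR-25 samples the folds were 1.24, 1.28 and 1.14. edgeR called 7 of 136 genes in the controls (5.15%) and 10 in the miR-25 samples (7.35%), and 0 of the 3 genes were among them. Time, depth and transfection cannot be told apart here, since each time had its own transfection efficiencies in the labels and the 48 h samples had lower totals.

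For DVL3 the log2 change from 24 h to 48 h was 0.37 ± 0.13 in the controls (adjusted p = 0.128) and 0.30 ± 0.09 in the miR-25 samples (adjusted p = 0.0909), both in the edgeR fit. The median of all tested genes moved by 0.13 and 0.09, so part of each value was shared with the panel. Neither arm overlapped between the times, which also held for 29 of 136 genes in the controls (21.3%) and 25 in the miR-25 samples (18.4%). The exact permutation test gave p = 0.1 in each arm, the smallest that 3 against 3 allows. In the miR-25 samples DVL3 passed with TMM scaling (adjusted p = 0.0460, 12.5% of genes called), with the total without GAPDH (adjusted p = 0.0418, 9.56%), with DESeq2 (adjusted p = 0.00976, 24.3%) and without replicate 1 at 48 h (adjusted p = 0.0175, 45.6%). The adjusted p over all alternatives of that result ran from 0.00976 to 0.273.

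For FRAT1 the log2 change was 0.71 ± 0.25 in the controls, with an adjusted p of 0.128 in the edgeR fit and a 95% interval of 1.081-fold to 2.47-fold. In the miR-25 samples it was 0.36 ± 0.24, with an adjusted p of 0.366. Leaving out replicate 1 at 48 h raised it to 0.52 ± 0.19 there, with an adjusted p of 0.0487, in a fit that called 45.6% of the genes. The range over the alternatives was 0.0487 to 0.717. In the controls the same omission left 0.71, with an adjusted p of 0.0502 where 39.7% of the genes were called. The difference between the arms in this change is the interaction given above.

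For DVL2 the log2 change was 0.18 ± 0.13 in the controls and 0.19 ± 0.13 in the miR-25 samples, with adjusted p of 0.362 and 0.374 in the edgeR fit. The median gene moved nearly as far in the controls. The exact permutation test gave p = 0.3 in each arm. DVL3 to DVL2 was 1.14-fold higher at 48 h in the controls, at 0.606 to 0.625 at 24 h and 0.637 to 0.784 at 48 h. The exact permutation test gave p = 0.1, or 0.375 after adjustment over the 15 comparisons of ratios. The log2 change of this ratio was 0.19, and 0.11 without 48 h replicate 1. How many other genes have a ratio to DVL2 that separates the times was not counted. In the miR-25 samples DVL3 to DVL2 was 1.083-fold higher, and the times overlapped. There the log2 change was 0.12, and 0.037 without 48 h replicate 1.

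The direction of the time change depended on what the counts were scaled to. With TMM, with the total without GAPDH and with the 5 genes TUBB, HPRT1, GUSB, GAPDH and CLTC as reference, all 3 genes stayed above 0 in both arms. With the positive control probes, a scaling added after seeing the data, all 3 turned: in the controls the log2 changes were -0.55 for DVL2, -0.38 for DVL3 and -0.083 for FRAT1, and in the miR-25 samples -0.36, -0.26 and -0.20. Under that scaling the median of all tested genes moved by -0.64 and -0.46, so all 3 were still above the median gene. Whether the amount of these transcripts per cell changed was not tested. The same scaling moved the median gene by 0.27 in the 48 h miR-25 comparison. There DVL2 rose by 0.30 ± 0.12 (adjusted p = 0.0394) and DVL3 by 0.39 ± 0.12 (adjusted p = 0.0161) in edgeR's test, which called 37.5% of the genes, and over both times DVL3 rose by 0.31 ± 0.09 (adjusted p = 0.0132, 23.5% of genes called). In this scaling DVL2 thus lay 0.036 above the median gene, and its range of adjusted p over all alternatives was 0.0394 to 0.991.

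**Figure D5:**
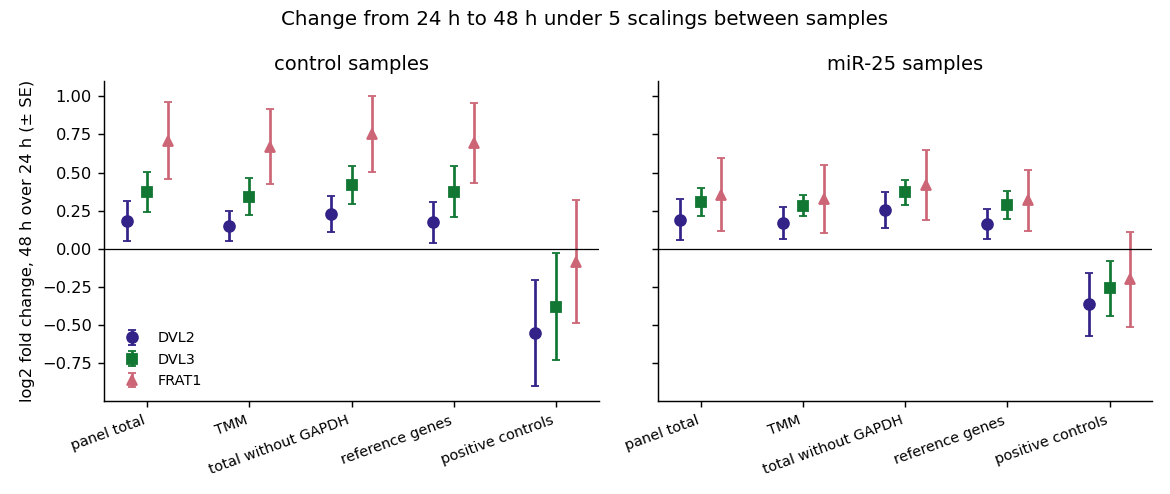
Log2 change from 24 h to 48 h (y axis, ± SE) of DVL2, DVL3 and FRAT1 in the control samples (left) and the miR-25 samples (right), under 5 scalings between samples. The 4 scalings to panel genes gave values above 0, and scaling to the positive control probes gave values from -0.55 to -0.083.

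DVL1, the other Dishevelled gene of the panel, was lower at 48 h than at 24 h relative to the panel total, where DVL2 and DVL3 were higher, but it did not pass the test. With the positive control probes all 3 Dishevelled genes were below 0. It was counted up to 151 times in the 24 h controls and 23 to 61 times in the 48 h controls. Its scaled count was 100 ± 3.12 in control 24 h and 75.3 ± 16.5 in control 48 h, and 100 ± 13.2 and 72.4 ± 7.98 with miR-25 (SD, n = 3 each). The log2 change was -0.39 ± 0.19 in the controls (adjusted p = 0.191) and -0.47 ± 0.18 in the miR-25 samples (adjusted p = 0.133) in the edgeR fit. DVL1 passed in the miR-25 samples without replicate 1 at 48 h (-0.52, adjusted p = 0.0487, 45.6% of genes called). It also passed with the positive control probes, at -1.12 in the controls (adjusted p = 0.0405) and -1.03 in the miR-25 samples (adjusted p = 0.0154), where the median gene moved by -0.64 and -0.46. Over all alternatives the adjusted p in the edgeR, DESeq2 and limma fits ran from 0.0405 to 0.410 in the controls and from 0.0154 to 0.374 in the miR-25 samples. Without replicate 1 at 48 h the control value was -0.24. The DVL1 to DVL2 ratio was 0.130 to 0.172 in the 24 h controls and 0.0764 to 0.109 in the 48 h controls, at 0.646-fold. With miR-25 it was 0.132 to 0.147 at 24 h and 0.0708 to 0.111 at 48 h, at 0.635-fold. Each gave an exact permutation p of 0.1, the smallest possible, or 0.375 after adjustment over the 15 comparisons of ratios. In the controls the log2 change of the DVL1 to DVL2 ratio was -0.63, and -0.48 without 48 h replicate 1. The share of all tested genes whose ratio to DVL2 separates the times was not counted. With miR-25 against control, DVL1 stood at a log2 change of -0.03 ± 0.09 over both times.

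The rest of the Wnt pathway was described by a list of 76 panel genes by role, 53 of which had enough counts to be tested. For miR-25 against control, edgeR called 0 of the 53 at 24 h, at 48 h and over both times, with 8, 5 and 11 at an unadjusted p below 0.05. None of the groups had a call: 3 ligands, 7 receptors, 7 kinases acting on Dishevelled or beta-catenin, 9 genes of beta-catenin and its destruction complex, 7 nuclear factors, 7 target genes and 12 noncanonical effectors. The list's median over both times was 0.02 on the log2 scale, and that of all 136 genes was 0.02. The smallest p over both times belonged to FOSL1, a target gene that encodes an AP-1 subunit (0.13 ± 0.03, adjusted p = 0.0947), and next among the higher genes came CSNK1G2, a casein kinase 1 that phosphorylates the Wnt co-receptor (0.19 ± 0.06, adjusted p = 0.249). Among the lower ones were PRKCE, a protein kinase C (-0.20 ± 0.08, adjusted p = 0.267), and CDC42, a small GTPase (-0.06 ± 0.03, adjusted p = 0.311).

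From 24 h to 48 h, 1 of the 53 passed in the controls, where 5.15% of all tested genes did. It was the ligand WNT5B, which fell by 1.55 on the log2 scale (SE 0.25, adjusted p = 0.0140). In the miR-25 samples 4 of 53 passed, where 7.35% of all tested genes did: WNT5B fell by 1.46, the receptor FZD7 fell by 0.61 and APC, a scaffold of the destruction complex, fell by 0.58, while PRKCD, a protein kinase C, rose by 0.52 (adjusted p = 0.0499). All are in the edgeR fit. These calls depended on the setting. Of the 18 alternatives in each arm, 1 summed both samples of each transfection, so it was the same fit for both arms. Of 18 alternatives WNT5B was called in 13 in each arm, with adjusted p from 6e-09 to 0.082 in the controls and from 3.71e-09 to 0.0927 in the miR-25 samples. There FZD7 was called in 11 of 18 (7.12e-05 to 0.128), APC in 10 (8.71e-05 to 0.148) and PRKCD in 6 (0.000655 to 0.876), and the log2 change of PRKCD ran from -0.041 to 0.59. The median of the list was -0.02 in the controls and -0.05 in the miR-25 samples, against 0.13 and 0.09 for all tested genes.

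The genes whose scaled counts ran closest to each of the 3 over the 12 samples were found by the root mean square distance of log2 values centred on their means. For DVL2 these were ADAR, an RNA-editing enzyme (0.07), the corepressor CTBP1 (0.07) and the cyclin CCND3 (0.11), against a median distance of 0.28 over 135 genes. For DVL3 they were PRKACB, a catalytic subunit of protein kinase A (0.10), the Hedgehog transcription factor GLI2 (0.10) and CCND3 (0.12), against a median of 0.29. For FRAT1 they were the protease BMP1 (0.24), the ligand WNT5A (0.25) and PRKCE (0.26), against 0.43. The distances for FRAT1 include its larger counting error. Genes that share a scaling and a difference between the times come out close in this measure.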

How the data were processed

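RNA of the 12 LX-2 samples was hybridised to the nCounter Dx Stem Cell Panel. The deposited values were whole counts per probe, and the totals of the positive control probes differed between samples, so the background correction and scaling in nSolver that the study's methods describe had not been applied to them. Of the 199 gene identifiers, 193 were named through the panel's gene sheet and 6 through RefSeq. Counts were scaled to the total over the panel genes, genes with a mean under 20 were left out (136 kept), and edgeR 4.0.16 (R 4.3.3) quasi-likelihood tests were run with p-values adjusted by Benjamini-Hochberg over those genes at 0.05. The miR-25 comparisons used all 12 samples with the transfection pair as a block; each time comparison used the 6 samples of 1 arm. Control and miR-25 samples of a transfection deviated together from their group means (r = 0.283 to 0.883), and same-numbered samples across the times did not (r = -0.0958 to 0.0565). The pairing comes from the transfection efficiency and replicate number that both samples share in the labels. No 2 samples were duplicates.

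Exact tests flipped the signs of log2 ratios over pairs, or permuted 3 against 3 samples, two-sided. Alternatives were TMM, the total without GAPDH, 5 reference genes, positive control probes (added after seeing the data), DESeq2 1.42.0, limma 3.58.1 on log2(scaled count + 1), background subtraction, other filters and blocks, and leaving out replicates. The time comparisons also had a fit of the summed counts of each transfection, entered under both arms. The scripts were tested on simulated data with a spread near that of the miR-25 comparisons (common CV of 3.45% and 3.81%). The time comparisons had a larger one (17.6% and 18.7%), at which the scripts were not tested. Intervals of 95% on counts cover counting error only. The genes named were the 3 members, the 3 genes nearest to each, DVL1 and the called or lowest-p genes of a Wnt list. The members and lists were chosen with earlier results of these data known. The authors' fold and q columns in the supplement were not used.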

Additional observations from a re-analysis of the deposited data

How the results depend on the processing

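DVL3 kept its sign and stayed short of the threshold in all 17 alternatives for miR-25 at 24 h. The values below turned sign or crossed the threshold, and the cause was not tested. For miR-25 against control, the log2 change of DVL2 turned with TMM scaling (-0.0078) and DESeq2 (-0.016) at 24 h, and with DESeq2 over both times (-0.000105). Its difference between the times turned with reference genes (-0.00369) and limma (-0.00113), and all these values lay within 1 SE of 0. FRAT1 at 24 h turned with TMM (-0.015) and DESeq2 (-0.018). With the positive control probes, the scaling chosen after seeing the data, DVL2 at 48 h (0.30) and DVL3 at 48 h (0.39) and over both times (0.31) passed, FRAT1 over both times turned (0.023), and so did the difference for DVL3 (0.14). The time changes turned for DVL2 (-0.55 in control, -0.36 with miR-25), DVL3 (-0.38 and -0.26) and FRAT1 (-0.083 and -0.20). DVL3 over time with miR-25 passed with TMM (0.28), without GAPDH (0.37) and with DESeq2 (0.29). The correction for transfection efficiency moved the mean ratio of DVL3 to 1.63 at 24 h and 1.98 at 48 h, and that of FRAT1 to 1.51 and 0.460. DVL1 over time passed with the positive control probes (-1.12 in control, -1.03 with miR-25) and, with miR-25, without 48 h replicate 1 (-0.52). With background subtraction FRAT1 to DVL2 at 24 h turned (0.0094).

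Without the replicate block, with samples of a transfection not paired, 0 genes were called in the miR-25 comparisons, against 1 at 48 h with it, and DVL3 stood at 0.14 over both times (adjusted p = 0.988 by edgeR; 0.0132 to 0.988 over the alternatives). Numbers did not pair samples across the times, where a replicate block gave 0 calls in each arm. At 24 h and at 48 h, samples of that time alone gave 3 calls each. At 48 h no filter on low counts gave 3 and positive control scaling 51, which gave 32 over both times. For the difference between the times, TMM, the total without GAPDH, positive control scaling, DESeq2 and no filter gave 1 call each. Over time in control, DESeq2 gave 22 calls and positive control scaling 26. With miR-25, TMM gave 17, reference genes 4, positive control scaling 50, DESeq2 33, no filter 6 and all 12 samples in 1 fit 17.

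With 1 replicate left out, the range was -0.012 to 0.070 for DVL2 at 24 h, -0.033 to 0.066 for DVL2 at 48 h and -0.057 to 0.042 for its difference. For DVL3 it was 0.11 to 0.24 at 24 h, lowest without 24 h replicate 1, 0.050 to 0.15 at 48 h, lowest without 48 h replicate 2, 0.11 to 0.17 over both times, passing without 48 h replicate 1, -0.13 to 0.00191 for the difference and 0.26 to 0.34 over time with miR-25. For FRAT1 it was -0.12 to 0.21 at 24 h, -0.52 to -0.17 at 48 h and 0.19 to 0.52 over time with miR-25. DVL1 to DVL2 ran from -0.14 to 0.058 at 24 h, from -0.36 to 0.16 at 48 h and from -0.17 to 0.042 over both, and FRAT1 to DVL2 from -0.085 to 0.13 at 24 h and from -0.00804 to 0.29 over time with miR-25. Calls ran from 0 to 3 at 24 h, 0 to 2 at 48 h, 0 to 4 over both times, 1 to 54 over time in control and 0 to 62 with miR-25, the highest counts coming without 48 h replicate 1, except at 48 h, where it came without 48 h replicate 3. A 24 h to 48 h change rests on 3 samples a group. Of the 3 members, FRAT1, with 26 to 80 counts a sample, was the most limited by depth. DVL1 fell to 23 counts in control 48 h replicate 1, with a counting error of 20.9%.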
